A study of Oryctolagus cuniculus with 16 samples.

Results

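The genes described here are *CDKN1A*, 4 other genes of cyclin-dependent kinase (CDK) inhibitors and 4 target genes of the transcription factor p53, measured in femoral heads after ligation (Perthes rabbits) and in those of control rabbits. They were taken by symbol from the authors' gene table, in which 8 of the 9 listed genes were found among 20255 genes. These are *CDKN1A*, *CDKN1B*, *CDKN2B*, *CDKN2C*, *MDM2*, *CCNG1*, *GADD45A* and *SESN1*, whereas *CDKN1C* was not analysed here. All 8 passed the low-count filter, which left 15305 genes to be tested. The genes were selected on their measured levels in Perthes against control rabbits, together with what they are known to do, so the values of these 8 genes in that comparison are given as a description and without a test.

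The Perthes group held 5 rabbits operated on at 8 weeks of age. Surgery cut off the supply of blood to the femoral head by a tie around its neck and by severing its ligament (the ligamentum teres). The control group held 3 rabbits labelled as wild type, with no operation named in the labels, and neither their age nor the time between surgery and sampling is given in the sources used here. Ligation models the loss of blood flow and not the spontaneous onset of the disease in children. Total RNA of whole femoral head tissue was depleted of ribosomal RNA and sequenced.

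CDK inhibitors are small proteins that bind CDKs or cyclin-CDK complexes and hold cells in the G1 phase. The CIP/KIP family (*CDKN1A* for p21, *CDKN1B* for p27, *CDKN1C* for p57) binds several cyclin-CDK complexes, and the INK4 family (*CDKN2A* for p16, *CDKN2B* for p15, *CDKN2C* for p18, *CDKN2D* for p19) binds CDK4 and CDK6. The transcription factor p53 is stabilised after DNA damage and other stresses and switches on *CDKN1A* together with genes of repair, cell death and metabolism, and with *MDM2*, whose product marks p53 for degradation. *CDKN1A* is also induced without p53, for example by TGF-beta signaling and during the maturation of many cell types, and *CDKN1B* is high in resting cells.

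The libraries held 27331725 to 29461482 counts in the Perthes group and 26757087 to 28783082 in the control group. Values are given as CPM, which are counts relative to the library total after scaling by the TMM method, and SE stands for standard error. In edgeR's quasi-likelihood test over all genes, with Benjamini-Hochberg adjustment and calls made at adjusted p-values below 0.05, 951 genes (6.21%) were higher and 1356 genes (8.86%) were lower in Perthes rabbits, of which 645 (4.21%) and 1028 (6.72%) were beyond a log2 fold change of 1. With library totals alone as the scaling these became 678 and 1705 genes. Without control rabbit 2, no gene passed, although 1624 higher and 2098 lower genes had an unadjusted p below 0.05, so every call below was lost in that setting. Of 39 called genes that the naming rule chose, 22 were also called without Perthes rabbit 3, 23 without Perthes rabbit 5 and 9 without control rabbit 1. The 8 that were called without each rabbit other than control rabbit 2 were *BUB1*, *CDK2*, *CDKN2A*, *CKS2*, *CTCF*, *DTL*, *PLK3* and *USP7*. The groups did not overlap in 11.2% of the tested genes on the higher side and in 13.9% on the lower side. Summed CPM of the chondrocyte markers (8 genes found) and osteoblast markers (9 genes found) were at 35664 CPM or more in every rabbit, although *COL2A1* took 84.3% of the first sum and *COL1A1*, which fibroblasts also express, 97.8% of the second.

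*CDKN1A* (gene 100348489), which encodes p21, had 236, 176, 226, 147 and 243 CPM in Perthes rabbits 1 to 5. In control rabbits 1 to 3 it had 38.7, 42.0 and 57.6 CPM. The lowest Perthes rabbit was thus at 2.55 times the highest control, and the highest Perthes rabbit was at 1.66 times the lowest. The means were 206 ± 42.2 CPM (SD, n = 5) and 46.1 ± 10.1 CPM (SD, n = 3), a ratio of 4.46 and a fitted log2 fold change of 2.16 (SE 0.25). The counts behind these values ran from 1084 in control rabbit 1 to 7153 in Perthes rabbit 5. In whole tissue, a change in the share of cells that express a gene and a change in its RNA per cell cannot be told apart. Markers of macrophages (8 genes found, 6 higher and 0 lower in edgeR's test) summed to 7337, 5190, 5380, 779 and 5991 CPM in Perthes rabbits 1 to 5 and to between 396 and 453 CPM in controls, with *GPNMB* taking 70.5% of the sum. Perthes rabbit 4 had the lowest macrophage sum and the lowest *CDKN1A* of its group, and both were above those of every control. Fibroblast markers (7 genes, 3 higher) summed to 14398 to 26008 CPM in Perthes rabbits against 1490 to 8834 CPM in controls, and the part of either cell type in the *CDKN1A* values was not tested.

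**Figure D1:**
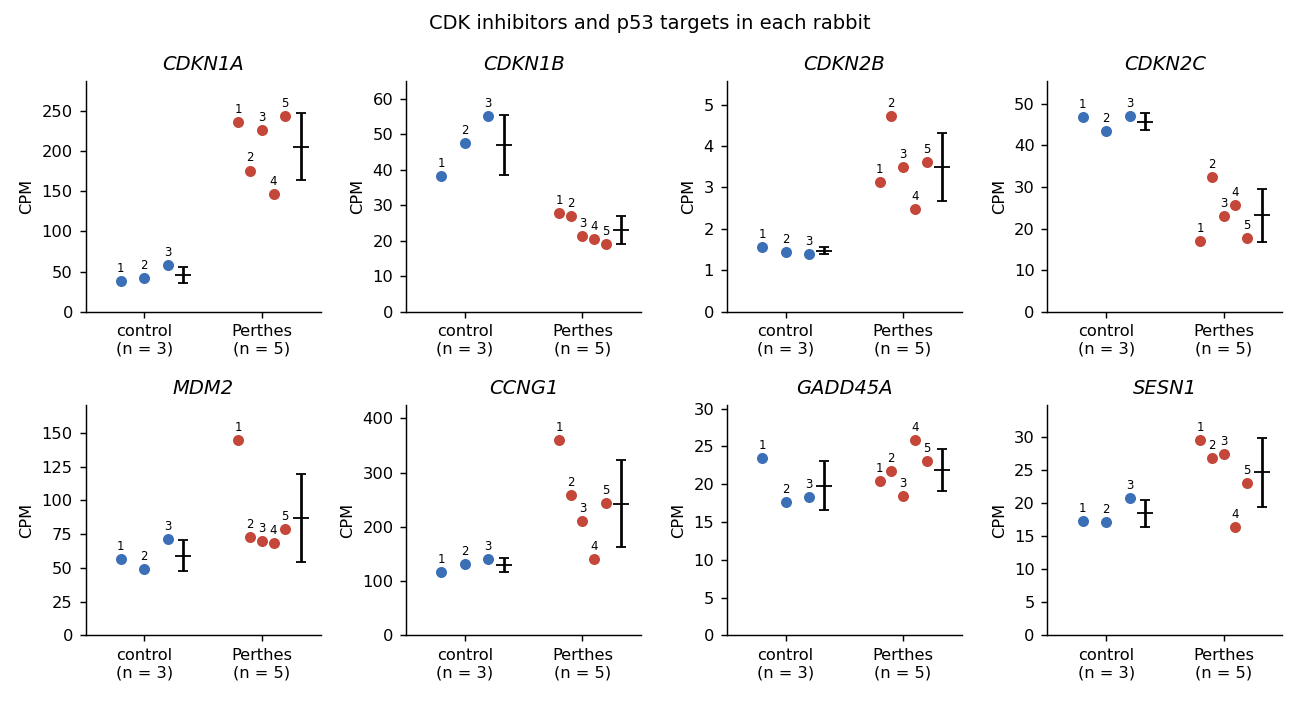
CPM of the 8 genes in each rabbit, with control rabbits in blue and Perthes rabbits in red, each point marked with the rabbit's replicate number. Black bars give the mean ± SD. The groups are apart for *CDKN1A*, *CDKN1B*, *CDKN2B* and *CDKN2C*, and overlap for *MDM2*, *CCNG1*, *GADD45A* and *SESN1*.

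*CDKN1B* (100009037), which encodes p27, lay on the other side. It had 27.7, 26.9, 21.3, 20.5 and 19.0 CPM in Perthes rabbits 1 to 5, and 38.3, 47.5 and 55.1 CPM in control rabbits 1 to 3. Every Perthes rabbit was below every control, with means of 23.1 ± 3.93 CPM (SD, n = 5) and 46.9 ± 8.43 CPM (SD, n = 3) and a log2 fold change of -1.02 (SE 0.18).

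The INK4 genes also lay on both sides. *CDKN2C* (100358955), which encodes p18, had 17.02, 32.5, 22.9, 25.6 and 17.8 CPM in Perthes rabbits 1 to 5 and a narrow range of 43.3 to 47.0 CPM in controls. Its groups did not overlap, and its log2 fold change was -0.98 (SE 0.22). *CDKN2B* (100351874), which encodes p15 and is known as a target of TGF-beta signaling, had 3.14, 4.72, 3.49, 2.47 and 3.61 CPM in Perthes rabbits 1 to 5. Its controls were at 1.57, 1.45 and 1.40 CPM, below every Perthes rabbit. The means were 3.49 ± 0.818 CPM (SD, n = 5) and 1.47 ± 0.0904 CPM (SD, n = 3), which is a log2 fold change of 1.24 (SE 0.27). Of the 8 genes, 2 thus had groups apart on the higher side and 2 on the lower side, and these were the 4 CDK inhibitors. Because the genes were listed with this contrast in view, nothing is read from that count.

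Ratios within a library do not depend on the scaling. The ratio of *CDKN1A* to *CDKN1B* was 1.01, 0.885 and 1.04 in control rabbits 1 to 3. In Perthes rabbits 1 to 5 it was 8.53, 6.54, 10.6, 7.16 and 12.8, a mean of 9.13 ± 2.58 (SD, n = 5) against 0.981 ± 0.0845 (SD, n = 3). These are ratios of counts that are not corrected for transcript length, so that a value of 1 does not mean equal numbers of transcripts. The ratio of *CDKN1A* to *CDKN2C* was 0.829 to 1.23 in controls and 5.42 to 13.9 in Perthes rabbits. The ratio of *CDKN1A* to *MDM2*, both direct p53 targets, was 0.687 to 0.854 in controls and 1.63, 2.42, 3.25, 2.14 and 3.10 in Perthes rabbits 1 to 5. This ratio was above that of every control in all 5 Perthes rabbits. Because the genes were listed with this contrast in view, these ratios are a description and nothing is read from their separation.

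**Figure D2:**
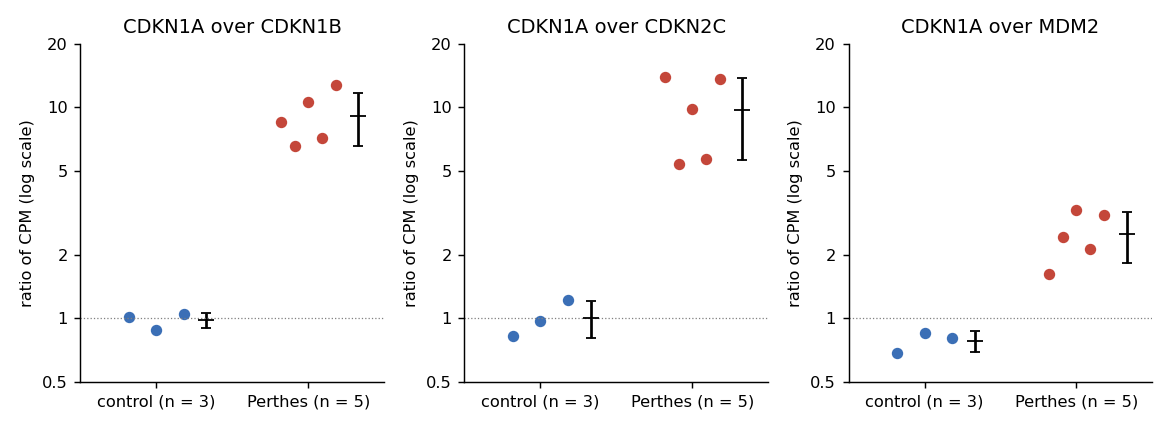
Ratios of CPM within each library on a log scale, with control rabbits in blue, Perthes rabbits in red and black bars for the mean ± SD. *CDKN1A* over *CDKN1B* sits between 0.885 and 1.04 in controls and between 6.54 and 12.8 in Perthes rabbits, while *CDKN1A* over *MDM2* is at most 0.854 in controls and at least 1.63 in Perthes rabbits.

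The 4 p53 targets among the listed genes were less far apart than *CDKN1A*. *CCNG1* (100357563), which encodes cyclin G1, a p53-induced protein that binds a protein phosphatase, had 360, 258, 211, 141 and 243 CPM in Perthes rabbits 1 to 5 and 116, 131 and 141 CPM in controls. Perthes rabbits 1, 2, 3 and 5 were above every control, and Perthes rabbit 4 was level with the highest control. *MDM2* (100340389) had 145, 72.7, 69.6, 68.5 and 78.6 CPM in Perthes rabbits and 56.4, 49.2 and 71.5 CPM in controls. Perthes rabbit 1 held 33.3% of the Perthes total of *MDM2*, and 3 of the 5 Perthes rabbits were above the highest control. *SESN1* (100344328), a sestrin that restrains the growth regulator mTORC1 under stress, had 29.6, 26.9, 27.4, 16.4 and 23.1 CPM in Perthes rabbits and 17.4, 17.2 and 20.9 CPM in controls. For *SESN1*, 4 Perthes rabbits were above every control and Perthes rabbit 4 was below every control. *GADD45A* (100353284), a stress-response gene of cell cycle arrest and repair, had 20.4, 21.7, 18.5, 25.9 and 23.1 CPM in Perthes rabbits and 23.5, 17.6 and 18.3 CPM in controls, ranges that overlap almost wholly. The log2 fold changes were 0.91 (SE 0.28) for *CCNG1*, 0.56 (0.28) for *MDM2*, 0.42 (0.21) for *SESN1* and 0.15 (0.17) for *GADD45A*.

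Among the Perthes rabbits the genes did not follow one order. Perthes rabbit 1 was the highest of its group for *MDM2*, *CCNG1*, *SESN1* and *CDKN1B*, and the lowest for *CDKN2C*. Perthes rabbit 4 was the lowest for 5 of the 8 genes, namely *CDKN1A*, *CDKN2B*, *MDM2*, *CCNG1* and *SESN1*, and the highest for *GADD45A*. The highest Perthes rabbit exceeded the lowest by 2.56 times for *CCNG1*, 2.11 times for *MDM2*, 1.66 times for *CDKN1A* and 1.40 times for *GADD45A*. Besides its low macrophage sum, Perthes rabbit 4 had the highest sum of chondrocyte markers, at 145707 CPM against 35664 to 79629 CPM in the other Perthes rabbits, and the part of this difference in its values was not tested.

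Of the other CDK inhibitor genes, *CDKN2A* rose and *CDKN2D* fell. *CDKN2A*, which encodes p16, a marker of senescent cells, and also the protein ARF, is listed under the identifier LOC100340625 with its full name. Counts per gene do not tell the transcripts of p16 and ARF apart. Its expected counts were 71.91, 85.90, 79.84, 33.25 and 105.77 in Perthes rabbits 1 to 5, against 3.00, 0.00 and 4.82 in control rabbits 1 to 3. Over the libraries, 377 counts in 5 Perthes rabbits stood against 8 counts in 3 controls, 27.3 times as many per library total (95% exact interval 13.7 to 63.6, for counting error only). This interval leaves out the spread between rabbits and the division of reads with *CDKN2B* described below. The adjusted p was 0.0118 in edgeR's test (2.75e-10 to 0.115 over the alternatives), and every Perthes rabbit was above every control. The gene remained at a low level, with 2.68 ± 0.931 CPM (SD, n = 5) in Perthes rabbits. *CDKN2D*, which encodes p19, had 3.58, 18.3, 7.64, 8.84 and 8.24 CPM in Perthes rabbits 1 to 5 and 58.9, 26.4 and 18.9 CPM in controls. Its log2 fold change was -1.90, with an SE of 0.50 and an adjusted p of 0.0351 (edgeR), and the call was also lost without Perthes rabbit 3, 4 or 5 or without control rabbit 1 (adjusted p up to 0.261 over all alternatives). *CDKN3*, which encodes a phosphatase that acts on CDK2, had 9.98 ± 5.72 CPM (SD, n = 5) and 8.94 ± 0.112 CPM (SD, n = 3), and a log2 fold change of 0.16 (SE 0.44) whose sign turned without Perthes rabbit 1 or 5.

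*CDKN2A* and *CDKN2B* shared reads in the authors' quantification. In 6 of the 8 libraries their counts were not whole, and in all 6 the sum of the pair was whole within 0.005, so part of the reads had been divided between these genes. The division does not affect the sum of the pair, which came to 165, 212, 175, 101 and 212 counts in the Perthes libraries 1 to 5, against 47, 41 and 47 in the controls. In CPM the sum was 6.17 ± 1.65 (SD, n = 5) and 1.56 ± 0.117 (SD, n = 3), with no overlap of the groups. The values of either gene alone are uncertain by the reads that were divided.

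A list of 77 further genes taken as switched on by p53 was examined beside the 4 listed targets, of which 66 could be tested. This list and the other gene lists were chosen with earlier results of these data known. Their shares beside those of all genes are therefore a description and not a test of the lists. In edgeR's test 10 of them rose (15.2%, against 6.21% of all tested genes), 5 fell (7.58%, against 8.86%) and 51 did not pass. The share that fell was near that of all genes, so the genes that fell are given as single values and not as a result about the list. The median log2 fold change was 0.25, with 41 genes above 0 and 25 below, while the median over all tested genes was 0.02. Among the genes that rose, *PLK3*, a stress-response kinase, had 7.90, 7.11, 9.03, 9.24 and 11.7 CPM in Perthes rabbits 1 to 5 and 2.61, 2.72 and 3.19 CPM in controls. Its log2 fold change was 1.66, with an SE of 0.23 and an adjusted p of 0.0118 (edgeR). *EDA2R*, a receptor of the TNF receptor family, rose by 1.95, with an SE of 0.36 and an adjusted p of 0.0136 (edgeR), with a control mean of 1.03 ± 0.160 CPM (SD, n = 3) and a Perthes mean of 3.99 ± 1.45 CPM (SD, n = 5). *ATF3*, a stress-induced transcription factor that other pathways also induce, rose by 4.07, with an SE of 0.90 and an adjusted p of 0.0210 (edgeR), and its Perthes values spread from 13.5 CPM in rabbit 4 to 184 CPM in rabbit 1. *ABCA12* rose from 5 counts over the 3 control libraries to 9 to 44 counts in each Perthes library, so that it rests on few reads. *ZMAT3*, an RNA-binding protein gene regarded as a specific p53 target, had 94.1, 47.3, 59.0, 35.0 and 67.2 CPM in Perthes rabbits 1 to 5 and 15.9, 19.0 and 24.9 CPM in controls. Its log2 fold change was 1.60, with an SE of 0.32 and an adjusted p of 0.0165 (edgeR). The others that rose were *CMBL* at 1.65, *TIGAR* at 1.63, *PHLDA3* at 1.21, *VCAN* at 1.13 and *TRIAP1* at 0.70.

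**Figure D3:**
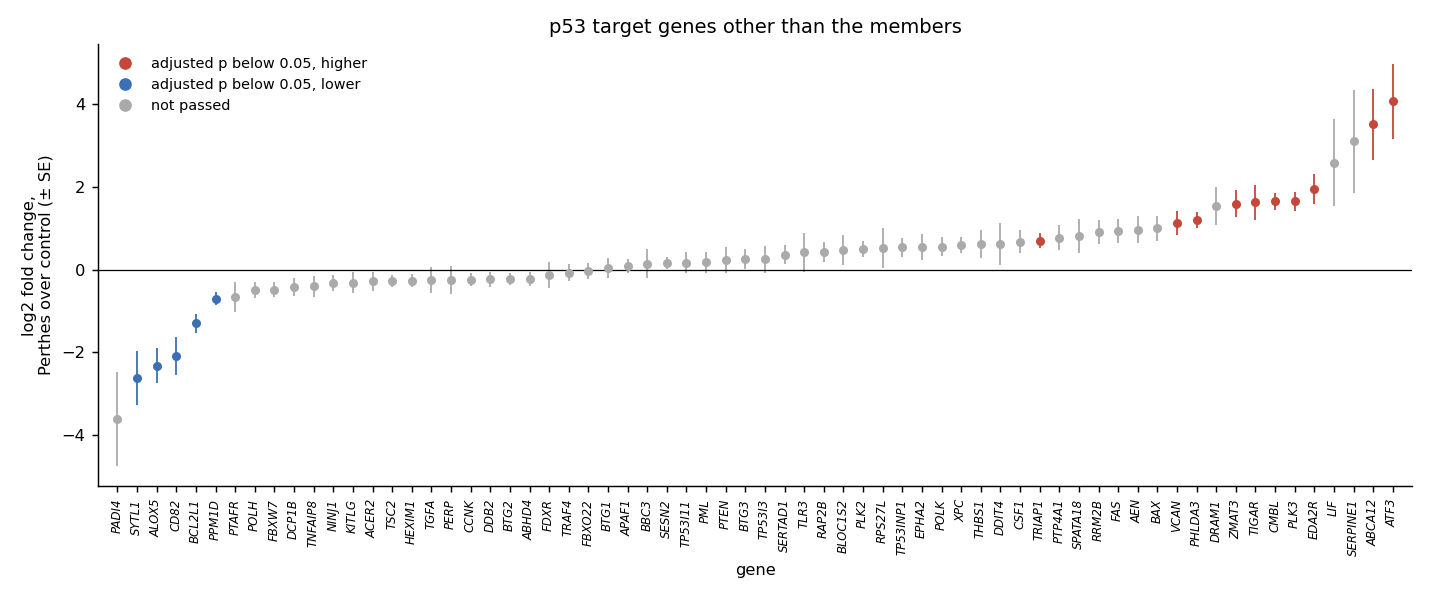
Log2 fold changes of 66 tested p53 targets other than the listed ones, ordered by value, with bars of 1 standard error. Red marks the 10 genes higher and blue the 5 genes lower that passed edgeR's test at 0.05 after adjustment, and grey the 51 genes that did not pass.

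Of the p53 targets of cell death, *BAX*, *FAS* and *BBC3* did not pass the test. *BAX*, the pore-forming death effector, had 31.1, 23.1, 26.03, 15.1 and 37.8 CPM in Perthes rabbits and 16.7, 12.4 and 10.8 CPM in controls, and its log2 fold change was 1.00, with an SE of 0.30 and an adjusted p of 0.0524 (edgeR). Perthes rabbit 4 was again the one within the control range, and *BAX* passed without that rabbit and in DESeq2, as did *FAS*. *FAS*, a death receptor, was at 0.93 (edgeR, adjusted p of 0.0622), and *BBC3*, which encodes PUMA, was at 0.15 (edgeR, adjusted p of 0.794). *PMAIP1*, which encodes NOXA and is listed as LOC103349392, was removed by the low-count filter. The list also held *BCL2L1*, which encodes the survival protein BCL-xL rather than a protein of cell death. *BCL2L1* fell by 1.30, with an SE of 0.23 and an adjusted p of 0.0134 (edgeR). Its control mean was 147 ± 16.5 CPM (SD, n = 3) and its Perthes mean 59.8 ± 18.04 CPM (SD, n = 5). The others that fell were *SYTL1* at -2.61, *ALOX5* at -2.32, *CD82* at -2.08 and *PPM1D* at -0.70. *ALOX5* is a leukocyte lipoxygenase, and markers of granulocytes (7 genes found, 4 lower) summed to 25.6 to 1515 CPM in Perthes rabbits and 5765 to 18724 CPM in controls. Erythroid markers (10 genes, 3 lower) summed to 655 to 2569 CPM and 5188 to 5900 CPM, and BCL-xL is known as a survival factor of erythroid cells. All 7 granulocyte and all 10 erythroid markers had groups apart on the lower side, as had 13.9% of all tested genes. Their median log2 fold changes were -3.69 and -3.1, against 0.02 over all tested genes. The part of granulocytes and erythroid cells in the lower values was not tested.

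The number of p53 targets called rested on single libraries, as did the number called over all genes. Without Perthes rabbit 4, 18 rose and 5 fell. Without Perthes rabbit 3 or without Perthes rabbit 5, 6 rose and 2 fell. Without control rabbit 1, 3 rose and 0 fell in edgeR's test, although 17 and 6 had an unadjusted p below 0.05, and without control rabbit 2 both counts were 0, with 18 and 8 at an unadjusted p below 0.05. DESeq2 called 16 higher and 6 lower. Over all genes, edgeR called 1267 higher and 1423 lower without Perthes rabbit 4, and 385 and 646 without Perthes rabbit 3. These numbers were 351 and 550 without Perthes rabbit 5, and 73 and 184 without control rabbit 1.

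Regulators of p53 were examined as a list of 28 genes, of which 27 were tested. In edgeR's test 0 rose (3 at an unadjusted p below 0.05, and 2 in DESeq2), against 6.21% of all tested genes. On the lower side 8 fell (29.6%, against 8.86%), and the median log2 fold change of the list was -0.33. *MDM4*, an MDM2 relative that blocks p53, was at -0.53 (edgeR, adjusted p of 0.0446), a call that was lost under 10 of 13 alternatives. *USP7*, a deubiquitinase that acts on MDM2 and p53, fell, with a control mean of 192 ± 30.1 CPM (SD, n = 3) and a Perthes mean of 100.3 ± 12.9 CPM (SD, n = 5), which is a log2 fold change of -0.93, with an SE of 0.17 and an adjusted p of 0.0137 (edgeR). *HIPK2* at -0.92, *EP300* at -0.77, *PPM1D* at -0.70, *CHEK1* at -0.58 and *RFFL* at -1.39 also fell. Without Perthes rabbit 3, Perthes rabbit 5 and control rabbit 1, in turn, 3, 2 and 1 genes of the list fell.

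The list taken as relatives of *GADD45A*, *SESN1* and *CCNG1* held 5 tested genes. Among these was *GADD45GIP1*, which encodes a protein that binds GADD45 proteins, is not such a relative and did not pass. Of the 5 genes, 1 rose and 0 fell in edgeR's test (0 at an unadjusted p below 0.05, and 0 in DESeq2). *GADD45G* rose, with a control mean of 3.01 ± 0.748 CPM (SD, n = 3) and a Perthes mean of 6.33 ± 1.37 CPM (SD, n = 5), which is a log2 fold change of 1.07, with an SE of 0.27 and an adjusted p of 0.0293 (edgeR), although this call was lost without any one of Perthes rabbits 3 and 5 and the 3 controls. *SESN2* at 0.16, *SESN3* at 0.43 and *CCNG2* at 0.27 did not pass, with adjusted p-values of 0.492, 0.494 and 0.229 in edgeR's test, although every Perthes rabbit was at or just above the highest control for *CCNG2*. *SESN3* stood at 354 CPM in Perthes rabbit 1 and at 107 to 157 CPM in the other Perthes rabbits.

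Genes whose products degrade the inhibitors or switch their genes on or off were examined next. In the list of 17 genes taken as ubiquitin ligase parts and cofactors that act on p21, p27 or p57, 15 were tested. Among these was *CDH1*, which encodes E-cadherin, is not such a part and was not among the genes that fell. In edgeR's test 0 rose (0 at an unadjusted p below 0.05, and 0 in DESeq2), against 6.21% of all tested genes. On the lower side 6 fell (40.0%, against 8.86%), with a median of -0.49 for the list. *DTL*, which directs p21 to destruction in S phase, fell by 1.22, with an SE of 0.21 and an adjusted p of 0.0133 (edgeR), and *CKS2* fell by 1.22, with an SE of 0.19 and an adjusted p of 0.0118 (edgeR). *CDC20* at -1.74, *PCNA* at -1.06 and *CKS1B* at -0.88 fell too, as did *RNF123* at -2.32, which encodes a ligase of free p27 in the cytoplasm. Genes of dividing cells are among these 6, and the part of such cells in their lower values was not tested. *SKP2*, which directs p27 to destruction in the nucleus, had 16.8 ± 3.39 CPM (SD, n = 5) and 22.2 ± 1.82 CPM (SD, n = 3), which is a log2 fold change of -0.40 (edgeR, adjusted p of 0.178). Without control rabbit 1, 3 genes of this list fell.

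Of 32 genes of transcription factors and chromatin proteins known to switch the inhibitor genes on or off, 31 were tested. In edgeR's test 1 rose (3.23%, against 6.21% of all tested genes) and 4 fell (12.9%, against 8.86%), and the median of the list was -0.02. These shares were near those of all genes, so the genes below are given as single values and not as a result about the list. *CEBPB*, a factor of inflammation and macrophages, rose, with a control mean of 12.8 ± 5.49 CPM (SD, n = 3) and a Perthes mean of 32.7 ± 7.20 CPM (SD, n = 5), which is a log2 fold change of 1.35, with an SE of 0.29 and an adjusted p of 0.0202 (edgeR). *FOXO3*, a forkhead factor that switches on *CDKN1B*, had 122, 174, 134, 151 and 107 CPM in Perthes rabbits 1 to 5 and 283, 303 and 264 CPM in controls. It fell by 1.04, with an SE of 0.19 and an adjusted p of 0.0135 (edgeR). *FOXO1* was at 0.02 (edgeR, adjusted p of 0.976), with a sign that depended on the scaling and on single rabbits. *EZH2*, a repressor of the *CDKN2A* locus, fell by 1.38, with an SE of 0.28 and an adjusted p of 0.0170 (edgeR), and *CTCF* at -0.91 fell as well. *IRF1* was at -1.35, a call that was lost under 8 of 13 alternatives (adjusted p up to 0.324 in edgeR), including without any one Perthes rabbit or control rabbit 1 or 2. The call of *CEBPB* was lost without Perthes rabbit 3 or control rabbit 3, without control rabbit 1 the list held 1 gene higher and 1 lower, and without Perthes rabbit 4 it held 2 higher and 5 lower.

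Downstream of the inhibitors, 38 genes of cyclins, CDKs, RB and E2F proteins and their partners were listed and 36 tested. In edgeR's test 24 fell (66.7%, against 8.86% of all tested genes), with a median of -1.22 for the list. On the higher side 0 rose (2 at an unadjusted p below 0.05, and 1 in DESeq2), against 6.21%. *E2F2* at -2.87, *TFDP2* at -2.61, *CDC25B* at -2.44 and *E2F8* at -2.20 were the lowest. *CDK2*, a kinase that p21 and p27 inhibit, had 28.2, 34.9, 31.6, 32.1 and 30.8 CPM in Perthes rabbits 1 to 5 and 64.2, 54.0 and 53.9 CPM in controls, a log2 fold change of -0.86, with an SE of 0.13 and an adjusted p of 0.0120 (edgeR). *CDK6* fell by 0.85, with an SE of 0.18 and an adjusted p of 0.0182 (edgeR), while *CDK4* was at 0.16, with an SE of 0.20 and an adjusted p of 0.629 (edgeR). Among the D-type cyclins, *CCND3* fell by 1.42, with an SE of 0.26 and an adjusted p of 0.0136 (edgeR), and *CCND2* was at 0.65, with an SE of 0.24 and an adjusted p of 0.0992 (edgeR). *RB1* was at -0.61, with an SE of 0.26 and an adjusted p of 0.141 (edgeR). Without Perthes rabbit 5 the number of lower genes was 15, and without control rabbit 1 it was 4, with 26 at an unadjusted p below 0.05.

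Proliferation markers moved with these genes. Of 18 markers, among them *CCNB1* and *CDK1* of the list above, 17 fell in edgeR's test (94.4%, against 8.86% of all tested genes). On the higher side 0 rose (0 at an unadjusted p below 0.05, and 0 in DESeq2), against 6.21%. All 18 had groups that did not overlap, as had 13.9% of all tested genes on the lower side. Their summed CPM was 408, 1074, 479, 636 and 464 in Perthes rabbits 1 to 5 and 2525, 2109 and 2101 in controls. *MKI67*, which is expressed in cycling cells, had 85.2, 315, 92.5, 150 and 85.7 CPM in Perthes rabbits and 782, 850 and 849 CPM in controls, a log2 fold change of -2.51, with an SE of 0.44 and an adjusted p of 0.0133 (edgeR). Perthes rabbit 2 had the highest sum of its group for proliferation markers and also for erythroid markers, at 2569 CPM against 655 to 956 CPM in the other Perthes rabbits. Red cell precursors of the marrow divide rapidly, and the part of such cells in the lower cell cycle genes was not tested. Without Perthes rabbit 3, Perthes rabbit 5 and control rabbit 1, in turn, 11, 11 and 3 of the markers fell.

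**Figure D4:**
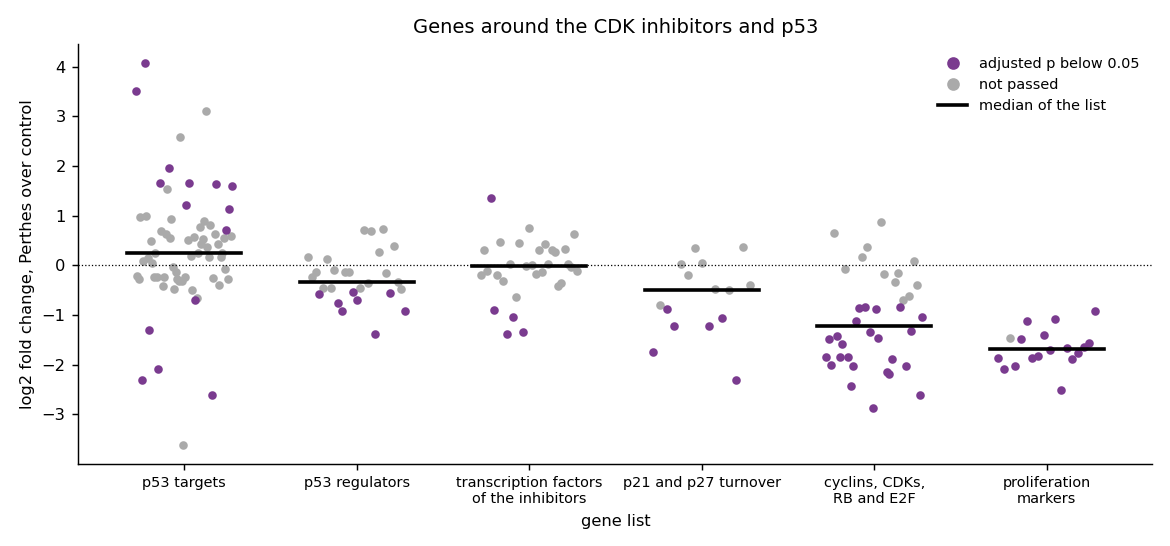
Log2 fold changes of single genes in 6 gene lists, with purple points for genes that passed edgeR's test at 0.05 after adjustment, grey points for genes that did not pass and black lines for the list medians. The medians run from 0.25 for p53 targets over -0.02 for transcription factors of the inhibitors to -1.22 for cyclins, CDKs, RB and E2F genes and -1.68 for proliferation markers. The list labelled transcription factors also holds chromatin proteins such as *EZH2*.

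The genes whose pattern over the 8 rabbits was most like that of *CDKN1A* were sought among 8042 named mRNAs with a mean of at least 10 CPM. Likeness was the mean absolute difference of log2 CPM, after each gene was centred on its own mean. The 8 nearest were *LGMN* at 0.15, *IL34* at 0.16, *COL4A2* at 0.18, *DACT1* at 0.19, *SPON1* and *AEBP1* at 0.20 and *PODN* and *FLVCR2* at 0.21 on the log2 scale. *LGMN*, a lysosomal protease gene, ran from 421 to 950 CPM in Perthes rabbits and from 132 to 166 CPM in controls. Among the other listed genes that reached this mean, *CCNG1* was the nearest, at 0.61 and rank 528, followed by *MDM2* at 0.77 and rank 1420. *CDKN2B* was below 10 CPM and was not ranked. None of the 8 nearest genes was among the 8 nearest when only the 5 Perthes rabbits were compared.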

How the data were processed

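The authors filtered the total RNA reads with SOAPnuke, aligned them to the rabbit genome (HISAT2 2.0.4), and deposited expected counts per gene from RSEM 1.1.17, with HTSeq 1.99.2 also named in their processing notes. Up to 10.7% of values in a library were not whole, and all were rounded. Another 8 columns of per-sample values repeat those used and did not enter. From small RNA libraries, the authors deposited read counts per miRNA and RPM values (counts relative to a library total), and Perthes rabbits 1 to 3 were used.

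The TMM scaling, the low-count filter (filterByExpr) and the quasi-likelihood test were those of edgeR 4.0.16, run in R 4.3.3. The model held the group alone, all 8 libraries entered, and adjustment was over 15305 genes. A standard error is the size of the log2 fold change divided by the square root of F. Log2 CPM used a prior count of 2. Precision was set by the spread between rabbits, except for genes of few counts such as *CDKN2A*. The third control is numbered 3 in its code and 2 in its title, and was taken as 3.

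The members and gene lists were chosen with earlier results of these data known. KEGG lists were added after the values were seen. Named genes were the members, 27 fixed names, and up to 4 genes per list and direction that passed with groups apart, and other genes were named after their values were seen. Genes listed by identifier were matched by full name. *CCND1*, *GADD45B* and *CDKN1C* were not analysed here. The values of 1 gene among the regulators of p53 are not reported here. Gene names and levels are those of the authors' table, and no coordinates were used. The edgeR and DESeq2 1.42.0 steps were tested on simulated data. Alternatives were DESeq2, its size factors, library totals, no low-count filter, a log2 fold change beyond 1, a block for the replicate number, and leaving out single rabbits.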

Additional observations from a re-analysis of the deposited data

Results flagged for a closer look

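In 13 of 60 genes checked, 1 Perthes rabbit stood far from the other 4 by Dixon's test at the 95% level, which flags about 1 in 20 groups by chance, and these genes share their 5 libraries. Perthes rabbit 1 was far above the others for *MDM2* (145 CPM, the next 78.6), *SESN3* (354, the next 157), *RB1* (43.4, the next 26.7), *FOXO1* (50.6, the next 32.95) and *ABCA12* (1.49, the next 0.599). Perthes rabbit 2 was far above the others for *MKI67* (315 CPM, the next 150), *E2F2* (83.5, the next 23.7), *TFDP2* (106, the next 40.8), *RNF123* (156, the next 51.0), *BCL2L1* (91.4, the next 57.02), *RFFL* (50.5, the next 34.1) and *CD82* (17.6, the next 7.09). It also had the highest sum of erythroid markers of its group, at 2569 CPM, and the part of these cells in the values was not tested. Perthes rabbit 3 was far below the others for *CKS2* (8.37 CPM, the next 11.6).

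The small RNA libraries of Perthes rabbits 1 to 3 entered no comparison between groups, and 10 of the 17 miRNAs looked up had more than 3 counts in each. The miR-34 family is known to be induced by p53, and miR-34a-5p had 3893, 3573 and 3506 RPM in Perthes rabbits 1 to 3, rank 12 of 866 by its median of 3573 RPM. Its relatives were far lower, with medians of 15.7 RPM for miR-34b-3p and 0.971 RPM for miR-34c-3p, and miR-215-5p, also a known p53 target, had 0.649 RPM. Of the miR-17 family, which is known to act on *CDKN1A* mRNA, miR-93-5p had a median of 181 RPM, miR-20a-5p 7.69 RPM, miR-17-5p 4.76 RPM and miR-20b-5p 2.59 RPM. Of the miRNAs known to act on *CDKN1B* mRNA, miR-222-3p had 2608, 2528 and 2620 RPM in Perthes rabbits 1 to 3 (median 2608 RPM, rank 17), and miR-221-3p a median of 108 RPM. The levels of these miRNAs in control rabbits were not analysed here, so no direction is given for them.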

How the results depend on the processing

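The log2 fold changes of the 8 listed genes kept their direction and moved by less than 1 SD under all 13 alternatives run for them, from 2.05 to 2.35 for *CDKN1A*, -1.15 to -0.88 for *CDKN1B*, 1.11 to 1.34 for *CDKN2B*, -1.13 to -0.89 for *CDKN2C*, 0.72 to 1.06 for *CCNG1*, 0.29 to 0.72 for *MDM2*, 0.34 to 0.60 for *SESN1* and 0.04 to 0.29 for *GADD45A*. Over all pathway lists together, of 196 genes tested, 13 rose (6.63%, against 6.21% of all tested genes) and 62 fell (31.6%, against 8.86%). DESeq2 called 23 higher and 69 lower. Leaving out one rabbit at a time gave 0 to 23 higher and 0 to 63 lower. With the replicate number as a block, 0 rose and 0 fell in edgeR's test, with 24 and 59 at an unadjusted p below 0.05 and 0 of all 15305 genes called. Deviations of same-numbered rabbits correlated at -0.317, 0.161 and -0.238. Whether same-numbered rabbits shared anything beyond the number was not tested, and nothing is read from the block result. With Perthes rabbits only, 0 of the 8 genes nearest to *CDKN1A* were found again. Signs turned for *CDKN3* (-0.13 without Perthes rabbit 1, -0.02 without Perthes rabbit 5), *BBC3* (-0.05 without control rabbit 3) and *FOXO1* (-0.06 with library totals, -0.17 without Perthes rabbit 1, -0.32 without control rabbit 1), none of which passed the test, and leaving out single rabbits gave -0.13 to 0.36, -0.05 to 0.39 and -0.32 to 0.23 for these 3 genes. The cause was not tested for any of these changes. Scaling by library totals moved the median of all genes by -0.09 and the share of higher among all calls from 41.2% to 28.5%.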

Other observations

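The KEGG annotation in the authors' table gives other lists around these genes, which were taken after the values had been seen. Its p53 signaling pathway held 65 genes besides 5 of the listed ones, and of 58 tested 4 rose (6.90%, close to the 6.21% of all tested genes) and 16 fell (27.6%, against 8.86%), with a median log2 fold change of 0.01. The 4 that rose were *CDKN2A* at 4.80, *ZMAT3* at 1.60, *GADD45G* at 1.07 and *SHISA5* at 0.74. Cyclins and CDKs made up 8 of those that fell, namely *CCND3*, *CCNE1*, *CCNE2*, *CCNB1*, *CCNB2*, *CDK1*, *CDK2* and *CDK6*, and the rest included *GTSE1* at -1.89 and *RRM2* at -1.76, which are also genes of dividing cells.

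The cell cycle pathway held 124 further genes, of which 116 were tested, with a median of -0.46. Of these, 2 rose (1.72%, against 6.21% of all tested genes) and 45 fell (38.8%, against 8.86%). The 2 that rose were *CDKN2A* and *GADD45G*. In the cellular senescence pathway, 142 of 152 further genes were tested, with a median of -0.15. Of these, 9 rose (6.34%, close to the share of all genes) and 29 fell (20.4%, against 8.86%). Among those that fell were *MAPK13* and *E2F2* at -2.87, *MYBL2* at -2.03 and *FOXM1* at -1.88. Among those that rose were *CDKN2A* and *GADD45G*, as in the p53 and cell cycle pathways, and *SQSTM1* at 1.28, *NFATC4* at 1.11 and *TGFBR2* at 0.56. Without control rabbit 1, 1 gene rose and 1 fell in the p53 pathway, 1 rose and 7 fell in the cell cycle pathway and 3 rose and 6 fell in the senescence pathway. Without Perthes rabbit 5 these were 2 and 7, 1 and 24, and 4 and 18, and without Perthes rabbit 3 they were 2 and 8, 1 and 26, and 4 and 20. Without Perthes rabbit 4, 8 rose and 16 fell in the p53 pathway.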
